A study of Mus musculus with 8 samples.

Results

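The genes described here encode the contractile actin cytoskeleton and its muscle-type relatives in mouse adult fibroblasts (MAFs), and they numbered 42 of the 18193 genes that the arrays measured. They were chosen by name and by known function, but with earlier results of these data known, so the choice was not blind. They fell into 15 smooth muscle genes, 11 striated muscle genes, 15 focal adhesion and nonmuscle cytoskeleton genes, and the transcription factor gene Srf. Each gene was represented by the probe set with the highest mean signal over all arrays among those annotated to its symbol alone, and all 42 genes had one. The signal was the log2 value given by robust multi-array averaging (RMA), so that a difference of 0.585 corresponds to 1.5-fold.

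The cells were primary MAFs of the peritoneal fascia of mice with a floxed Rb gene, and there were 4 populations with 2 arrays each. Cre Recurred cells had been infected with adenovirus encoding GFP and Cre, which deletes part of Rb, were treated with cisplatin (CDDP) for 24 h and then regrew in fresh medium. Cre Naïve cells carried the same deletion and received no drug. GFP Recurred cells had been infected with adenovirus encoding GFP alone, kept Rb, and were treated and regrown in the same way, and GFP Naïve cells kept Rb and received no drug. All 4 populations also carried a retrovirus encoding p53DD, a dominant-negative fragment of p53, so that no population with normal p53 function enters these comparisons. The labels call the 2 arrays of a population biological replicates, and p-values measure the spread between such arrays only. These are bulk cultures, in which fewer cells of one type and less RNA per cell cannot be told apart.

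The brightest Rb1 probe set read 4.98 and 5.45 in Cre Recurred cells, 6.21 and 5.72 in Cre Naïve cells, 8.21 and 8.78 in GFP Recurred cells, and 7.98 and 8.07 in GFP Naïve cells, so both Cre populations lay below both GFP populations. All 10 fibroblast marker genes lay above the median probe set of the table, whereas 1 of 6 macrophage, 1 of 5 endothelial and 1 of 5 epithelial markers did. In between were 6 of 10 vascular smooth muscle and pericyte markers, 4 of 9 mesothelial markers and 3 of 8 skeletal muscle markers. The replicates were not equally close. Over the 42 genes, Cre Naïve replicate 2 differed from Cre Recurred replicate 2 by a mean of 0.27 log2 units and from its own replicate by 0.489, while Cre Naïve replicate 1 lay nearest to GFP Recurred replicate 1, at 0.141. Differences of 1.5-fold or more between the 2 arrays of a population were seen for 5 of the 42 genes in Cre Recurred, 7 in Cre Naïve, 1 in GFP Recurred and 7 in GFP Naïve cells. Among all genes the shares were 9.46%, 12%, 3.53% and 9.52%, in the same order. Whether Cre Naïve replicate 2 carries the right label could not be settled from the values, and results that rest on it are therefore given with and without it.

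Contractile fibroblasts build stress fibers, bundles of actin filaments, tropomyosin and myosin that pull on focal adhesions, the sites where the cell grips its matrix. Many of the genes concerned are controlled by serum response factor (SRF), which binds the CArG box and is activated when its cofactors, the myocardin-related transcription factors, are released from unpolymerized actin. TEAD factors, the partners of YAP, bind the MCAT element found in many muscle promoters. Smooth muscle actin marks the myofibroblast, the contractile fibroblast of wounds and tumor stroma, and sarcomeric genes such as the troponins are characteristic of heart and skeletal muscle.

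Promoter windows of 300 bases, from 250 bases before to 50 bases after the annotated start, were available from RefSeq on build GRCm38.p6 for 37 of the 42 genes. Actg2, Tagln, Myh11, Csrp2 and Tnnt3 had no window. Both motifs were searched on both strands. The CArG box was searched as CCWWWWWWGG, where W is A or T, and the MCAT element as CATTCC, which reads GGAATG on the opposite strand. A CArG box was present for 8 of the 37 genes (21.6%) and for 1.81% of all 27025 genes in the table, and an MCAT element for 18 of the 37 genes (48.6%) and 16.6% of all genes. The genes had been grouped by function and include well-known SRF targets, so these shares are a description. By class, a CArG box was found for 1 of 11 smooth muscle genes, 3 of 10 striated muscle genes and 3 of 15 focal adhesion genes, and an MCAT element for 6 of 11, 6 of 10 and 6 of 15. Variant boxes and boxes outside the windows were not searched, so these shares do not rank the classes. Srf itself had 2 CArG boxes and no MCAT element. To show the motif matches, windows are printed for 3 striated muscle genes that were higher and 2 smooth muscle genes that were lower in Cre Recurred cells than in Cre Naïve or GFP Recurred cells. Each is printed 5′ to 3′ on the strand of the gene, with motif matches in capitals, and no match overlapped another. Acta1 (chr8:123894726-123895025, minus strand) had a CArG box that began 73 bases and an MCAT element that began 46 bases before the start. Ankrd1 (chr19:36119795-36120094, minus strand) had 2 MCAT elements, and Tnnt2 (chr1:135836084-135836383, plus strand), Mylk (chr16:34784700-34784999, plus strand) and Lmod1 (chr1:135324563-135324862, plus strand) had 1 each. A second Tnnt2 window held neither motif and is not shown. The windows of Des, Synpo2 and Parvb, which were called as well, also held neither. That of Smtn, likewise called and not shown, had an MCAT element that began 222 bases before the start. A match says only that these letters occur in the window.
Acta1: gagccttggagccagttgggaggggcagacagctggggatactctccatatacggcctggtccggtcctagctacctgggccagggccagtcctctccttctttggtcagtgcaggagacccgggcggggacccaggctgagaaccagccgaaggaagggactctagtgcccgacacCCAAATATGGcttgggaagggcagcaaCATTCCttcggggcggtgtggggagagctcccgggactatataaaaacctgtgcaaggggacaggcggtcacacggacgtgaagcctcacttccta
Tnnt2: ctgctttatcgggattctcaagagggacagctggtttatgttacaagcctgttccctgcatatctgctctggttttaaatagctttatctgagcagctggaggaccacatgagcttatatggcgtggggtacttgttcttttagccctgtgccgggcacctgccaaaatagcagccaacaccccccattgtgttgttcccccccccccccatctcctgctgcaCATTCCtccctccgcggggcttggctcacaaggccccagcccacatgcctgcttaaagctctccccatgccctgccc
Ankrd1: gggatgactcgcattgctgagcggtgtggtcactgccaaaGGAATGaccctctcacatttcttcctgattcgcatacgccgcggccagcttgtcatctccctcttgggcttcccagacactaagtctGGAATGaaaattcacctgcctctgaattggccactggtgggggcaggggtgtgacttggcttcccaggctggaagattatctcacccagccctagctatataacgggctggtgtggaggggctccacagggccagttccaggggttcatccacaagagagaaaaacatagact
Mylk: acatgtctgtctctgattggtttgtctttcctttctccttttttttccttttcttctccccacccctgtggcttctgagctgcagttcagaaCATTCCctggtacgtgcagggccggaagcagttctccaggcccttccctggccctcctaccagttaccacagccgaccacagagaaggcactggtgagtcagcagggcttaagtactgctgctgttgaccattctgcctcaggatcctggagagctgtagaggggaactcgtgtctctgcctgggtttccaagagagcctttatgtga
Lmod1: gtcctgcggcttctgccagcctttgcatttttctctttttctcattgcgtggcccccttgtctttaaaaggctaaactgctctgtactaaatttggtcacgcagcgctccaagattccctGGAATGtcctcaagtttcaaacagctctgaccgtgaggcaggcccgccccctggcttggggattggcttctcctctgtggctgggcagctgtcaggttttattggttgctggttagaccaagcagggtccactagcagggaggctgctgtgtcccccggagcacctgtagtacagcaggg

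The comparison of recurred populations asked how these genes differed with RB status once the cells had regrown from CDDP, and it gave more calls than the other comparisons made. In Cre Recurred cells, 3 striated muscle genes (Tnnt2, Ankrd1 and Des), the smooth muscle gene Smtn and the focal adhesion gene Parvb were higher than in GFP Recurred cells, and 3 smooth muscle genes (Mylk, Lmod1 and Synpo2) were lower. The fold changes ran from 1.63-fold for Smtn to 5.39-fold for Parvb, apart from Tnnt2, whose signal in GFP Recurred cells was dim. The most familiar contractile genes, Acta2, Tagln, Cnn1 and Myl9, did not pass the test. A gene was called when it passed the thresholds that the study applied, 1.5-fold and a false discovery rate of 25%, here a Benjamini-Hochberg adjusted p below 0.25 from limma over 45037 probe sets. Thus 8 of the 42 genes (19%) were called, 5 higher (11.9%) and 3 lower (7.14%), whereas 11.4% of all genes were called, 4.81% higher and 6.55% lower. At an adjusted p below 0.05, none of the 42 genes was called by limma, compared with 1.1% of all genes, and 10 of the 42 had an unadjusted p below 0.05, compared with 20.7% of all genes. A statistic of the SAM type called 10 of the 42 genes at the study's thresholds, and 14.5% of all genes. Each limma call draws on the spread shared over all 8 arrays, whereas the SAM-type statistic used only the arrays compared. With 2 arrays a side, the smallest two-sided p of an exact permutation test is 0.333.

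Tnnt2, the cardiac isoform of troponin T, which ties the troponin complex to tropomyosin, had signals of 7.71 and 6.67 in Cre Recurred cells, against 3.26 and 3.81 in GFP Recurred cells. It was higher by 3.65 log2 units (SE 1.04, n = 2 arrays each, limma adjusted p = 0.145), nominally 12.6-fold. On the GFP Recurred arrays only 15.5% and 26.2% of probe sets were dimmer than Tnnt2, and without detection calls these signals cannot be told from background, so the fold is not exact. The naïve arrays were split, with 3.39 and 6.71 in Cre Naïve cells and 3.90 and 5.53 in GFP Naïve cells, so that Cre Naïve replicate 2 reached the Cre Recurred range and Cre Naïve replicate 1 the GFP Recurred range. A second Tnnt2 probe set gave a difference of 3.10 (limma adjusted p = 0.116), and the third, a dim one, gave -0.19.

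Ankrd1 encodes a stretch-responsive ankyrin repeat protein that binds titin in muscle and is a well-known YAP target in other cells. Its signal was 12.04 and 10.89 in Cre Recurred cells, against 9.34 and 8.85 in GFP Recurred cells. It was 5.18-fold higher, a difference of 2.37 (SE 0.62, limma adjusted p = 0.123), and its other probe set gave 2.57 (limma adjusted p = 0.0843). In naïve cells it read 9.53 and 10.31 in the Cre population and 10.86 and 9.10 in the GFP population, and these arrays overlapped each other.

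Des encodes desmin, the intermediate filament of muscle cells and pericytes. It read 7.28 and 7.49 in Cre Recurred cells, against 5.72 and 5.75 in GFP Recurred cells, which was 3.13-fold higher, with a difference of 1.65 (SE 0.40, limma adjusted p = 0.109). Cre Naïve cells read 5.90 and 7.32 and GFP Naïve cells 6.10 and 6.35, so that, as for Tnnt2, replicate 2 of the Cre Naïve population lay with the Cre Recurred arrays. Its second, dim probe set gave a difference of 0.24.

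The other 8 striated muscle genes were not called between the recurred populations, and their differences ran from -0.79 for Fhl1 to 0.48 for Acta1. Acta1, skeletal muscle actin, had a limma adjusted p of 0.183 but differed by 1.39-fold, below the fold threshold. Fhl1, a LIM domain protein of muscle, read 11.17 and 9.81 in Cre Recurred cells and 11.28 and 11.28 in GFP Recurred cells, so that Cre Recurred replicate 2 carried most of the difference (limma adjusted p = 0.407). Of the troponins, Tnnt1, Tnnt3 and Tnnc1 had differences with limma adjusted p values of 0.412, 0.763 and 0.741. Cardiac actin (Actc1), Tnnt1, Tnnt2, Tnnt3 and Pdlim3 had mean signals below the median probe set of the table, leaving 6 of the 11 striated muscle genes above it. The median difference of the class was -0.05, compared with 0.04 over all genes.

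**Figure D1:**
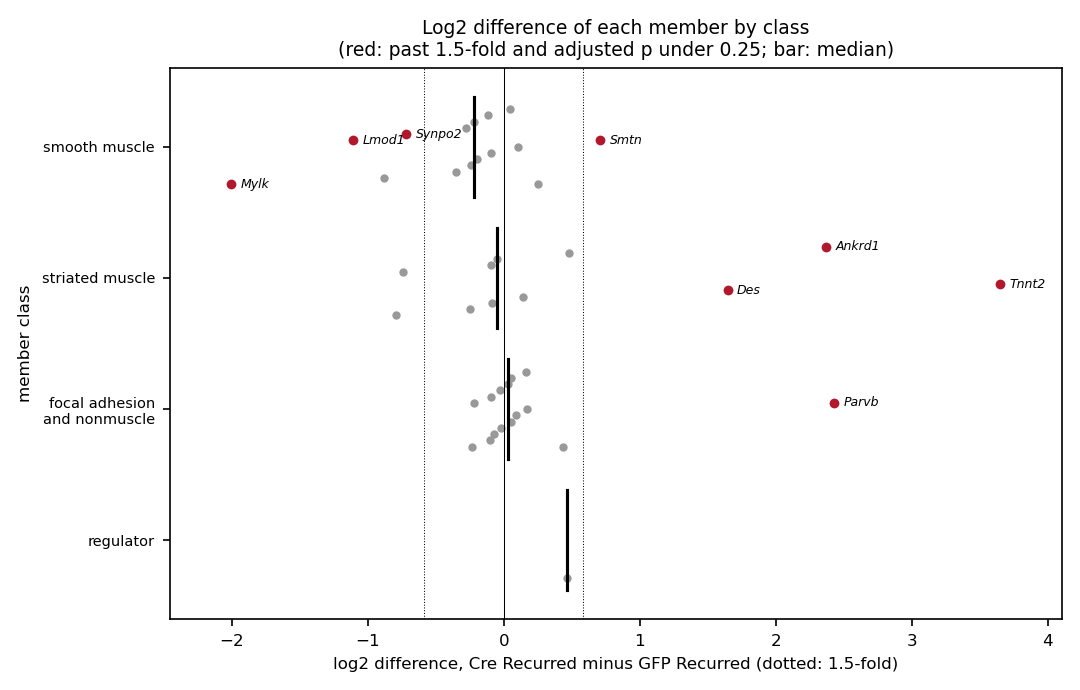
Each point is 1 gene, placed by its log2 difference, Cre Recurred minus GFP Recurred, on the horizontal axis and by class on the vertical axis; bars are class medians, dotted lines 1.5-fold, and red points the 8 genes called. Smooth muscle genes lay mostly below 0 (median -0.22), 3 striated muscle genes lay between 1.65 and 3.65, and focal adhesion genes other than Parvb lay between -0.23 and 0.43.

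Of the 15 smooth muscle genes, 11 had a negative difference between the recurred populations (43.3% of all genes), with a class median of -0.22 against 0.04 over all genes, and 9 had both Cre Recurred arrays below both GFP Recurred arrays. Over all 42 genes, 14 were higher and 16 lower without overlap of the arrays, while among all genes 31.7% were higher and 23.4% lower without overlap.

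Mylk encodes myosin light chain kinase, which switches on smooth muscle and nonmuscle myosin by phosphorylating its light chain. It read 6.79 and 7.30 in Cre Recurred cells, against 8.94 and 9.17 in GFP Recurred cells, and was 4.02-fold lower, a difference of -2.01 (SE 0.69, limma adjusted p = 0.206). The naïve populations each held a high and a low array, 8.93 and 6.98 in Cre Naïve cells and 9.04 and 7.48 in GFP Naïve cells, and Cre Naïve replicate 2 lay within the Cre Recurred range. A second Mylk probe set gave -2.25 (limma adjusted p = 0.22), and the third, a dim one, -0.21.

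Lmod1 encodes leiomodin, which seeds actin filaments in smooth muscle. It read 6.44 and 6.40 in Cre Recurred cells, against 7.30 and 7.75 in GFP Recurred cells, and was 2.16-fold lower, a difference of -1.11 (SE 0.24). This was the smallest limma adjusted p among the 42 genes in this comparison, 0.0841. Its Cre Naïve arrays, 7.27 and 6.81, and its GFP Naïve arrays, 7.29 and 6.85, both lay above the Cre Recurred pair.

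Synpo2, a synaptopodin that bundles actin, read 5.23 and 5.27 in Cre Recurred cells, against 5.78 and 6.16 in GFP Recurred cells, a difference of -0.72 (SE 0.24, limma adjusted p = 0.19). Its 3 further probe sets gave 0.03, -0.19 and 0.07, and with the mean of its probe sets the difference was -0.20 and not called. Smtn, smoothelin, a stress fiber protein of contractile smooth muscle, was the only gene of its class called higher, at 9.22 and 8.64 in Cre Recurred cells, against 8.12 and 8.32 in GFP Recurred cells, a difference of 0.71 (SE 0.25, limma adjusted p = 0.211).

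The 11 smooth muscle genes that were not called had differences from -0.88 to 0.25. Smooth muscle actin, Acta2, the marker of the myofibroblast, read 13.60 and 13.68 in Cre Recurred cells and 13.62 and 13.58 in GFP Recurred cells. The arrays overlapped, with a difference of 0.04 (SE 0.14, limma adjusted p = 0.917), and at most 0.173% of probe sets were brighter on these 4 arrays. Saturation was not tested. Enteric smooth muscle actin, Actg2, read 10.13 and 10.34 in Cre Recurred cells and 11.00 and 11.25 in GFP Recurred cells, without overlap, but its difference of -0.88 had an SE of 0.61 (limma adjusted p = 0.54). Tagln, the actin-binding protein SM22, read 12.19 and 12.24 in Cre Recurred cells and 12.68 and 12.46 in GFP Recurred cells. Its limma adjusted p of 0.286 was the smallest of these 11 genes, but its difference of -0.35 was below 1.5-fold as well. Calponin (Cnn1), with 10.62 and 10.97 in Cre Recurred cells and 11.13 and 11.02 in GFP Recurred cells, and the regulatory myosin light chain Myl9, with 12.31 and 12.47 in Cre Recurred cells and 12.31 and 12.27 in GFP Recurred cells, had limma adjusted p values of 0.586 and 0.857. Tpm1, Tpm2, Cald1, Csrp1, Csrp2 and Myh11 had adjusted p values of 0.35 or more in the same test. Myh11, smooth muscle myosin heavy chain, had a mean signal below the median probe set, the only gene of its class that did.

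Parvb encodes beta-parvin, which links integrin-linked kinase to actin at focal adhesions. It read 8.96 and 7.90 in Cre Recurred cells, against 6.19 and 5.81 in GFP Recurred cells, and was 5.39-fold higher, a difference of 2.43 (SE 0.79, limma adjusted p = 0.188), with 1.25 in its second probe set (limma adjusted p = 0.199). Again the naïve arrays were split, with 6.01 and 8.48 in Cre Naïve cells and 7.25 and 6.12 in GFP Naïve cells. None of the other 14 genes of its class was called, and their limma adjusted p values were 0.324 or more. These 14 comprise the adhesion proteins Vcl and Zyx, the crosslinkers Flna, Actn1, Actn4 and Palld, the nonmuscle myosins Myh9 and Myh10, the actin-binding proteins Tagln2, Cnn2, Cnn3 and Tpm4, and the LIM proteins Pdlim7 and Fhl2. Fhl2, a LIM cofactor of several transcription factors, came nearest, at 10.76 and 10.25 in Cre Recurred cells and 10.03 and 10.11 in GFP Recurred cells, a difference of 0.43. Tpm4 was the steadiest, within 0.162 log2 units over all 8 arrays.

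Srf read 9.37 and 8.83 in Cre Recurred cells and 8.72 and 8.55 in GFP Recurred cells. The arrays did not overlap, but the difference of 0.46 (SE 0.24) was below 1.5-fold and had a limma adjusted p of 0.397. Its second probe set gave 0.03.

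The 8 calls depended on single arrays. When replicate 1 or replicate 2 of GFP Recurred cells was left out, none of the 42 genes was called, with 1.13% and 0.126% of all genes. The same held when replicate 1 of Cre Recurred cells was left out, with 0.89% of all genes. In each case the lone array left was assumed to vary like the other populations. Without Cre Recurred replicate 2, Mylk and Synpo2 were no longer called.

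**Figure D2:**
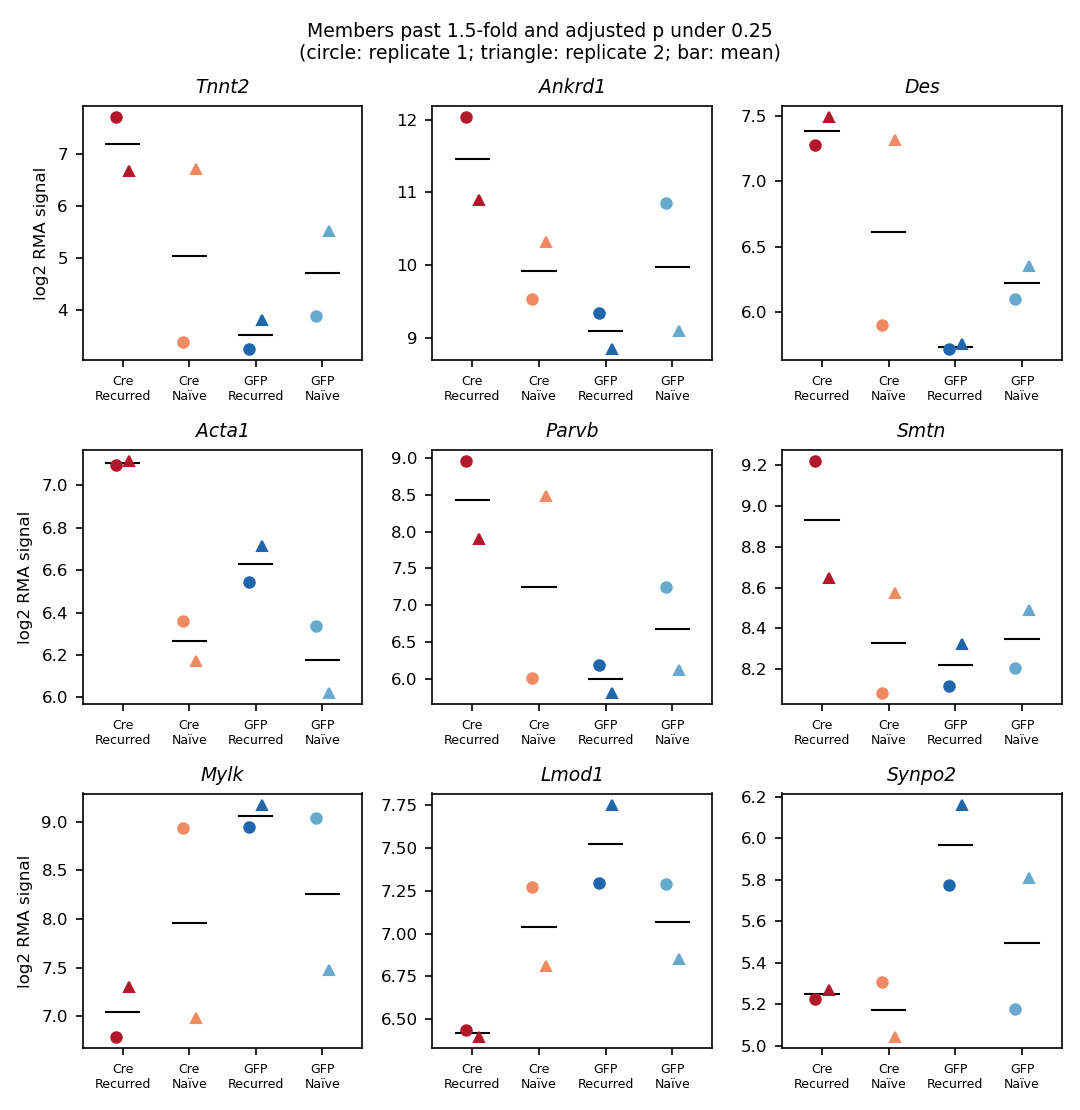
Each panel shows the log2 RMA signal (vertical axis, its own range) of 1 of the 9 genes called in either comparison, by population; circles are replicate 1, triangles replicate 2 and bars the mean of the 2 arrays. In the Tnnt2, Des and Parvb panels, Cre Naïve replicate 2 sits at 6.71, 7.32 and 8.48, within the range of the Cre Recurred arrays, and replicate 1 at 3.39, 5.90 and 6.01.

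Of 8 skeletal muscle markers, 2 were called between the recurred populations, where 11.4% of all genes were called. Myf5, a myogenic regulator, was 4.38 log2 units higher in Cre Recurred than in GFP Recurred cells (limma adjusted p = 0.16), and Chrna1, the acetylcholine receptor subunit of muscle, was 3.23 higher (limma adjusted p = 0.205). Myf5 read 7.05 and 6.80 in Cre Recurred, 2.66 and 6.77 in Cre Naïve, 2.75 and 2.32 in GFP Recurred, and 2.59 and 5.29 in GFP Naïve cells. On the GFP Recurred arrays only 5.56% and 0.491% of probe sets were dimmer than Myf5, so the size of its difference rests on signals near the floor. Its high arrays were the same as those of Tnnt2, both Cre Recurred arrays and replicate 2 of each naïve population. Of the other markers, Myod1 (4.41 to 5.09 over all 8 arrays), Myog (4.04 to 5.43) and Myh3 (3.41 to 3.95) had mean signals below the median probe set. So did Myh8 and Myf5 itself, whereas Chrna1, Ckm and Mylpf lay above it. Averaged over the 8 markers, the signal was 5.24 to 5.35 in Cre Recurred and 4.27 to 4.32 in GFP Recurred cells. It was 4.13 to 5.36 in Cre Naïve and 4.35 to 5.02 in GFP Naïve cells. These means were moved mainly by Myf5 and Chrna1, the only 2 markers that differed by 1.5-fold or more between the recurred populations. The median difference of the 8 markers was 0.14, and 3 of the 8 lay above the median probe set. The part of muscle-lineage cells in the differences of Tnnt2 and Des was not tested.

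Some fibroblast and mesothelial markers were called as well in this comparison, in which 4.81% of all genes were called higher and 6.55% lower. Of 10 fibroblast markers, Dcn, Fap and Prrx1 were lower in Cre Recurred than in GFP Recurred cells, with differences of -1.60, -2.39 and -1.05, and Thy1 was higher. The mean signal of the list was 10.36 and 11.55 in Cre Recurred and 11.65 and 11.97 in GFP Recurred cells. Of 9 mesothelial markers, Msln and Krt19 were higher and Bnc1 lower. Of 10 markers of vascular smooth muscle and pericytes, only Itga8 was called, lower at -1.56, and Myocd, the smooth muscle cofactor of SRF, read 3.57 and 3.62 in Cre Recurred and 3.75 and 3.26 in GFP Recurred cells, below the median probe set. No macrophage, endothelial or epithelial marker was called. The part of these cell types in the differences above was not tested.

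Recurrence in RB-deficient cells was examined by setting Cre Recurred against Cre Naïve cells. Acta1 alone was called, 1 of 42 genes (2.38%), where 1.65% of all genes were called and 0.456% were called higher. Acta1 read 7.10 and 7.11 in Cre Recurred cells, against 6.36 and 6.17 in Cre Naïve cells, and was 1.79-fold higher, a difference of 0.84 (SE 0.15, limma adjusted p = 0.176). GFP Recurred cells read 6.54 and 6.71 and GFP Naïve cells 6.33 and 6.02, so that the Cre Recurred pair was above all 6 other arrays. In GFP cells the difference with recurrence was 0.45 (limma adjusted p = 0.871). The call was lost without Cre Naïve replicate 1, either GFP Recurred array or Cre Recurred replicate 1. At an adjusted p below 0.05 limma called none of the 42 genes (0.0934% of all genes), and 5 had an unadjusted p below 0.05, compared with 14% of all genes. The SAM-type statistic called none at the study's thresholds (0.44% of all genes).

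Among the other genes with wide differences in this comparison, Ankrd1 differed by 1.54 (SE 0.62, limma adjusted p = 0.399) and Smtn by 0.60 (adjusted p = 0.406), each without overlap of the arrays. Lmod1 differed by -0.63 (limma adjusted p = 0.384), also without overlap. Slow skeletal troponin T, Tnnt1, read 4.33 and 4.33 in Cre Recurred cells, against 4.90 and 6.31 in Cre Naïve cells, a difference of -1.27 (SE 0.40, limma adjusted p = 0.332). This is opposite in sign to Tnnt2, which differed by 2.14 with overlapping arrays (SE 1.04, limma adjusted p = 0.461). Parvb differed by 1.18 (limma adjusted p = 0.566) and Mylk by -0.91 (adjusted p = 0.609), and both overlapped.

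Actg2 read 10.13 and 10.34 in Cre Recurred and 9.79 and 9.38 in Cre Naïve cells, a difference of 0.65 (limma adjusted p = 0.685). Srf, at 9.37 and 8.83 in Cre Recurred and 8.35 and 8.84 in Cre Naïve cells, differed by 0.51 (limma adjusted p = 0.455), and its arrays overlapped. In the focal adhesion class, Fhl2 read 10.76 and 10.25 in Cre Recurred and 10.06 and 10.16 in Cre Naïve cells (difference 0.39, limma adjusted p = 0.467). Pdlim7, an enigma family LIM protein, read 10.37 and 10.78 in Cre Recurred and 10.51 and 11.07 in Cre Naïve cells (limma adjusted p = 0.73). Tagln2, a relative of SM22, read 11.83 and 11.97 in Cre Recurred and 11.70 and 11.69 in Cre Naïve cells (limma adjusted p = 0.515). Class medians were -0.02 for smooth muscle, 0.02 for striated muscle and -0.01 for focal adhesion genes, against 0.05 over all genes.

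Des differed by 0.77 between Cre Recurred and Cre Naïve cells over all arrays, with overlap (limma adjusted p = 0.483). Cre Naïve replicate 2 was singled out by its own values, so wider differences without it follow in part from that choice. Without it, the difference was 1.48 for Des, 3.80 for Tnnt2, 2.42 for Parvb, 0.74 for Acta1, -1.88 for Mylk and -0.86 for Lmod1. Without Cre Naïve replicate 1 instead, it was 0.48 for Tnnt2, -0.056 for Parvb, 0.93 for Acta1, 0.063 for Mylk and -0.39 for Lmod1. Des read 7.32 on Cre Naïve replicate 2, between its Cre Recurred arrays, 7.28 and 7.49. Either omission leaves 1 Cre Naïve array, so no test is given.

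**Figure D3:**
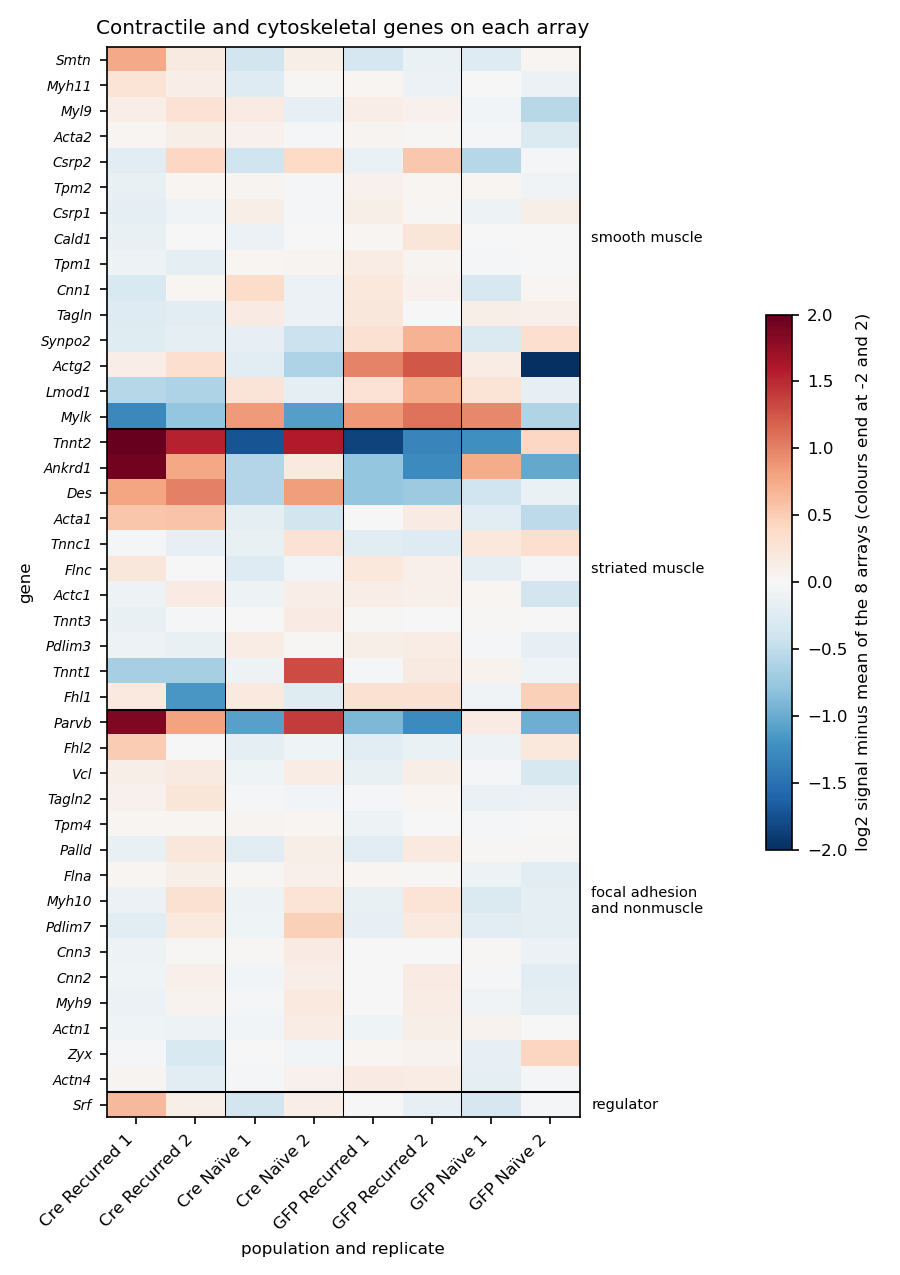
Colors give the log2 signal of each of the 42 genes (rows, by class) on each of the 8 arrays (columns) minus the mean of that gene over the arrays, with the scale ending at -2 and 2. Cre Naïve replicate 2 resembles the Cre Recurred columns in Tnnt2, Des, Parvb and Mylk, whereas most focal adhesion rows are pale on every array.

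In RB-proficient cells, none of the 42 genes was called by limma between GFP Recurred and GFP Naïve cells (0.0165% of all genes), none by the SAM-type statistic (0.962%), and 3 had an unadjusted p below 0.05 (5.93% of all genes). This comparison shares the GFP Recurred arrays with that of the recurred populations, as the comparison of Cre Recurred with Cre Naïve cells shares the Cre Recurred arrays. Of the 15 smooth muscle genes, 14 had a positive difference (52.8% of all genes), with a class median of 0.19, against 0.09 for striated muscle genes, 0.12 for focal adhesion genes and 0.01 over all genes. The widest was Actg2, at 11.00 and 11.25 in GFP Recurred cells, against 10.15 and 7.95 in GFP Naïve cells, a difference of 2.07 (SE 0.61, limma adjusted p = 0.871) that came largely from GFP Naïve replicate 2. Myl9 read 12.31 and 12.27 in GFP Recurred and 12.13 and 11.62 in GFP Naïve cells (limma adjusted p = 0.871). Lmod1 and Cnn1 differed by 0.45 and 0.29, each without overlap of the arrays, and neither was called.

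Loss of RB in untreated cells gave no call. Between Cre Naïve and GFP Naïve cells none of the 42 genes (0% of all genes) was called by limma or by the SAM-type statistic, and none of the 42 had an unadjusted p below 0.05 (2.45% of all genes). Without Cre Naïve replicate 2, none of the 42 was called either (0.0055% of all genes). The differences ran from -0.32 to 0.62, and class medians were 0.02 for smooth muscle, 0.09 for striated muscle and 0.14 for focal adhesion genes. With replicate gaps as wide as 3.32 log2 units for Tnnt2 and 1.94 for Mylk in Cre Naïve cells, a difference smaller than these gaps could not be resolved for these genes.

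Whether recurrence acted differently with RB status was tested directly by the interaction, the recurrence difference of Cre cells minus that of GFP cells. Limma called none of the 42 genes (0.539% of all genes), and 4 had an unadjusted p below 0.05, compared with 12.4% of all genes. These were Lmod1 with -1.08 (limma adjusted p = 0.38), Ankrd1 with 2.43 (0.428), Pdlim3 with -0.44 (0.456) and Tnnt1 with -1.36 (0.477). Without Cre Naïve replicate 2, 4 genes were called, with 4.86% of all genes: Des at 1.97 (limma adjusted p = 0.0382), Tnnt2 at 4.98 (0.123), Parvb at 3.11 (0.212) and Lmod1 at -1.31 (0.238). With all arrays, the interaction was 1.26 for Des (limma adjusted p = 0.504), 3.32 for Tnnt2 (0.496) and 1.87 for Parvb (0.596). Over naïve and recurred arrays together, 4 Cre arrays against 4 GFP arrays, limma called none of the 42 genes (1.89% of all genes). Of the 42, 8 had an unadjusted p below 0.05 (14.2% of all genes), and the SAM-type statistic called 3 (3.19% of all genes). Des differed by 1.01 (limma adjusted p = 0.278) and Lmod1 by -0.57 (adjusted p = 0.29). Without Cre Naïve replicate 2, Des alone was called, at 0.66 (limma adjusted p = 0.229), with 0.874% of all genes.

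The wider pathway was read from 6 lists of genes that act upstream of or beside the contractile genes. The SRF cofactors (6 genes), immediate early SRF targets (8) and cytoplasmic actins with their myosin light chains (6) had no call between Cre Recurred and GFP Recurred cells. Mrtfa, a cofactor that carries the actin signal to SRF, read 9.27 and 9.52 in Cre Recurred and 9.86 and 9.95 in GFP Recurred cells. Cytoplasmic beta-actin, Actb, read 13.79 to 13.90 on the 8 arrays, whose highest signals were 14.17 to 14.23, and saturation was not tested.

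Of 23 further focal adhesion and stress fiber genes, 1 was higher and 3 were lower in Cre Recurred than in GFP Recurred cells (4.81% and 6.55% of all genes). Talin 2, Tln2, which couples integrins to actin, read 7.27 and 7.59 in Cre Recurred, 8.81 and 8.44 in Cre Naïve, 8.63 and 8.65 in GFP Recurred and 8.83 and 8.90 in GFP Naïve cells. The Cre Recurred pair was below all 6 other arrays. Tln2 was lower than in GFP Recurred cells, with a difference of -1.22 (SE 0.17, limma adjusted p = 0.0429), and lower than in Cre Naïve cells, with a difference of -1.20 (limma adjusted p = 0.106). Sorbs2, an adaptor of stress fibers, read 4.62 and 4.37 in Cre Recurred, 8.85 and 6.33 in Cre Naïve, 7.65 and 7.88 in GFP Recurred and 8.79 and 5.96 in GFP Naïve cells. It was lower than in GFP Recurred cells, with a difference of -3.27 (SE 1.02, limma adjusted p = 0.172), and differed by -3.09 from Cre Naïve cells without being called (adjusted p = 0.35). Tensin 1, Tns1, was lower, at -1.20 (limma adjusted p = 0.123), and the LIM protein gene Pdlim1 higher by 1.27 (limma adjusted p = 0.0978), both against GFP Recurred cells.

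Of 12 YAP and TEAD genes, Ccn2, a secreted matricellular target of both YAP and SRF, was higher by 1.07 (limma adjusted p = 0.223), and Yap1 itself was lower, at -0.64 (limma adjusted p = 0.138). Its related target Ccn1 read 12.19 and 12.01 in Cre Recurred and 11.58 and 11.99 in GFP Recurred cells and was not called. Of 24 skeletal muscle regulators and sarcomere genes, Myf5 and Chrna1 were higher, as given above, and Actn3, the alpha-actinin of fast muscle, was lower, at -0.99 (limma adjusted p = 0.128). Of the 24, 7 lay above the median probe set. Among all genes, 4.81% were called higher and 6.55% lower between the recurred populations. Between Cre Recurred and Cre Naïve cells, Tln2 was the only gene of the 6 lists to be called.

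The lists depended on the same arrays as the 42 genes. Between the recurred populations, 9 of the 79 pathway genes and 10 of the 53 markers were called, against 11.4% of all genes, so that the share of pathway genes was that of the whole table. Myf5 and Chrna1 entered both counts. Without GFP Recurred replicate 1 the counts were 1 and 0, without GFP Recurred replicate 2 they were 0 and 0, and without Cre Recurred replicate 1 they were 0 and 0. Tln2 was the gene that remained called without GFP Recurred replicate 1 (limma adjusted p = 0.246), and it was lost without GFP Recurred replicate 2 (0.343) or Cre Recurred replicate 1 (0.252). Between Cre Recurred and Cre Naïve cells, Tln2 was lost without Cre Naïve replicate 1 (0.254), either GFP Recurred array (0.289) or Cre Recurred replicate 1 (0.571), and without Cre Naïve replicate 2 the count of pathway genes called was 8 of 79, with 8.06% of all genes.

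**Figure D4:**
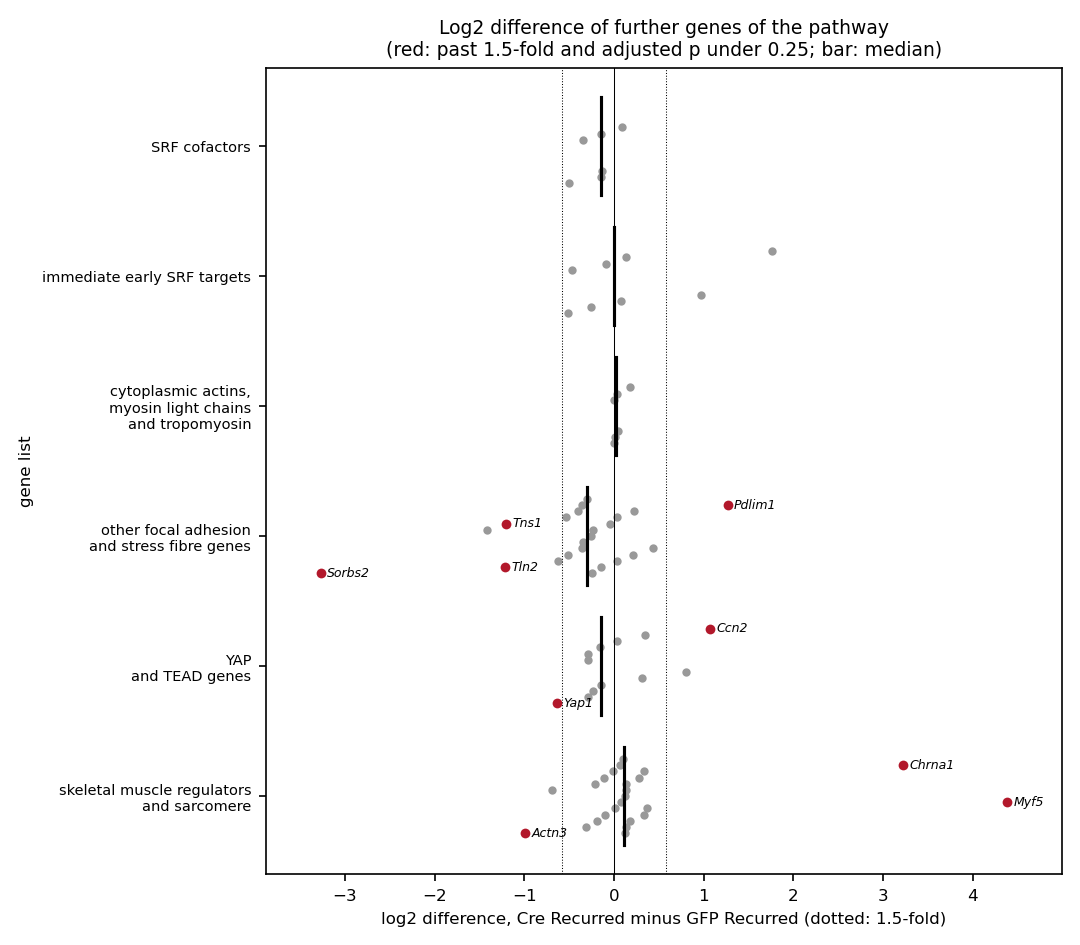
Each point is 1 gene of the 6 lists, placed by its log2 difference, Cre Recurred minus GFP Recurred; bars are list medians, dotted lines 1.5-fold, and red points genes called. Sorbs2 (-3.27) and Myf5 (4.38) lie farthest out, and the lists of SRF cofactors, immediate early targets and cytoplasmic actins hold no red point.

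The 42 genes had 90 probe sets, 48 of them beyond the brightest of each gene. Of these 48, 5 passed the study's thresholds between the recurred populations, whereas 8.85% of all probe sets did. They were the further probe sets of Tnnt2, Ankrd1, Parvb and Mylk named above and 1 of Tpm2, a tropomyosin of smooth muscle, whose difference was -0.71 (limma adjusted p = 0.124), while its brightest probe set, called in no comparison, gave -0.12.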

How the data were processed

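RNA from 4 MAF populations was hybridized to 8 Affymetrix mouse whole-genome arrays, 2 per population. The authors deposited log2 signals obtained by RMA, which corrects background, quantile normalizes and summarizes probes, so that overall shifts between arrays are removed; array medians lay between 5.37 and 5.41. The version of the RMA software is not given in the sources used here, and the precision is limited by having 2 arrays per population.

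Of 45101 probe sets, 64 controls were left out and 45037 tested with limma 3.58.1 in R 4.3.3 (1 mean per population, residual df 4, prior df 3.07, Benjamini-Hochberg adjustment over all probe sets). Symbols came from the platform annotation, updated by Entrez ID: 34945 probe sets had 1 symbol, 932 several and 9160 none. A call required 1.5-fold and an adjusted p below 0.25, the stricter one 0.05. The script was tested on simulated data.

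Values on every array are given for genes called in any comparison and for the 4 of each class that differed most between Cre Recurred and Cre Naïve cells; others were chosen after their values were seen. The genes, lists and tests were chosen with earlier results of these data known. Of 125 list genes, 123 were measured; 1 further list is not reported here. Alternatives were a filter on dim probe sets, other probe set rules, another prior, fewer arrays, a replicate block and a SAM-type statistic.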

Additional observations from a re-analysis of the deposited data

How the results depend on the processing

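Under the other probe set rules, counts of called genes stayed within 1.5 times. With only the arrays compared or with the SAM-type statistic, 0 of the 42 genes were called between Cre Recurred and Cre Naïve cells. Between the recurred populations, 6 were called at a limma adjusted p below 0.05 with only the arrays compared, and 4.89% of all genes. The SAM-type statistic gives a q-value from permuted arrays, and at a q below 0.05 it called 8, and 6.7% of all genes. That q rests on the few splits of 2 arrays against 2 and cannot carry so strict a level. Over all Cre against all GFP arrays, the SAM-type statistic called 3 of the 42 genes (3.19% of all genes). The count was 1 with the filter on dim probe sets, which kept 36 of the 42 genes. Calls over all genes were not counted under this filter. That filter moved the striated muscle median to 0.52 (Cre Recurred minus Cre Naïve), -0.19 (GFP Recurred minus GFP Naïve), -0.046 (Cre Naïve minus GFP Naïve) and 0.31 (Cre Recurred minus GFP Recurred), since 5 dim genes left the list. Without probe sets shared between genes, the smooth muscle median was 0.074 (Cre Recurred minus Cre Naïve). Both without them and with the mean of all probe sets of a gene it was 0.29 (GFP Recurred minus GFP Naïve), and the striated muscle median was 0.14 (Cre Recurred minus GFP Recurred). Between the recurred populations, Mylk and Parvb were lost with a trended robust prior (limma adjusted p = 0.262 and 0.252), and Synpo2 with the mean of its probe sets. Between Cre Recurred and Cre Naïve cells, Acta1 was lost with only the arrays compared (limma adjusted p = 0.432) and with the SAM-type statistic (permutation q = 0.347).

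Leaving out 1 array at a time gave 0 to 6 called genes between Cre Recurred and Cre Naïve cells, 0 to 1 between GFP Recurred and GFP Naïve (1 without GFP Naïve replicate 1), 0 to 2 between Cre Naïve and GFP Naïve (2 without Cre Naïve replicate 1), 0 to 9 between the recurred populations, 0 to 4 for the interaction and 0 to 5 for all Cre against all GFP arrays. At the stricter threshold these counts were 0 to 1, 0 to 0, 0 to 0, 0 to 2, 0 to 1 and 0 to 1. Between Cre Recurred and Cre Naïve cells the class medians ranged from -0.15 to 0.053 (smooth muscle), -0.10 to 0.22 (striated muscle) and -0.11 to 0.055 (focal adhesion). Between GFP Recurred and GFP Naïve cells they ranged from 0.14 to 0.23, 0.0093 to 0.10 and 0.029 to 0.17. Between Cre Naïve and GFP Naïve cells they ranged from -0.0015 to 0.070, -0.084 to 0.24 and 0.078 to 0.21. Between the recurred populations they ranged from -0.29 to -0.14, -0.10 to 0.067 and -0.15 to 0.14. In the comparison of Cre Recurred with Cre Naïve cells, Mylk ranged from -1.88 to 0.063 and Parvb from -0.056 to 2.42, with the sign turned without Cre Naïve replicate 1, and Pdlim7 from -0.49 to 0.066, with the sign turned without Cre Naïve replicate 2. The cause was not tested.

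Whether the replicate numbers pair the arrays was not settled, since the labels tie no number to a shared source. Correlations of the replicate differences between populations ran from -0.255 to 0.307 over all probe sets and from -0.44 to 0.393 over the 42 genes. The 8 immediate early SRF targets were brighter on replicate 2 in all 4 populations (mean signals 8.12 to 8.76, against 7.66 to 7.95 on replicate 1). With the replicate number as a block, 8 genes were called between the recurred populations, as without it. Acta1 was the 1 gene called between Cre Recurred and Cre Naïve cells (limma adjusted p = 0.215). In the other comparisons 0 were called, again as without the block. Calls over all genes were not counted with the block.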
